A study of Homo sapiens with 16 samples.

Results

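The replication-dependent histone genes were examined as 72 probe sets of 53617 on the array, of which 25713 carried a gene symbol. Members were all probe sets whose gene symbols, without exception, were H1-1 to H1-6 or began with H2AC, H2BC, H3C or H4C and a number, with older HIST names brought to these forms. They comprised 6 probe sets for the linker histones H1, 17 for H2A, 21 for H2B, 12 for H3, 15 for H4 and 1 annotated to both H2A and H3 genes. Gene copies of a family are nearly identical, and each probe set was kept apart: 32 probe sets had 1 symbol and 40 had several. A probe set with several symbols is called here by its family and identifier, since the copy that it measured is not told by its annotation. A pair of H3 and a pair of H4 probe sets held identical values on all arrays and each pair was counted once, which left 70 members. They named 71 genes, 56 on chromosome 6, 14 on chromosome 1 and 1 on chromosome 12, and 2 of these genes, H2AC2P and H2BC20P, are transcribed pseudogenes.

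These genes supply the histones that package newly copied DNA, and their mRNAs accumulate in S phase and are degraded when DNA synthesis stops. Most lie in clusters where NPAT, a coactivator driven by cyclin E and CDK2, promotes their transcription. Their mRNAs usually end in a stem-loop bound by SLBP, with no poly(A) tail, though some copies also give polyadenylated transcripts in cells that do not divide.

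RNA came from DLD1 and HCT116, established human colorectal carcinoma lines, on Affymetrix whole-transcript arrays. PIK3CA, which encodes the catalytic p110-alpha subunit of phosphoinositide 3-kinase, had been edited in both: the DLD1 Mut and HCT116 Mut derivatives had lost the wild-type allele and the DLD1 WT and HCT116 WT derivatives the mutant allele, so that all 4 had been through targeting. The labels give 1 derivative for each line and genotype and name no clone, so genotype and clone cannot be told apart. Each derivative was kept for 24 h in DMEM with 10% dialyzed fetal bovine serum, either with or without glutamine, and 2 biological replicates per group gave 8 groups and 16 arrays. P-values measure the spread between these replicates, and 2 arrays per group limit the precision.

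Array medians were 3.57 to 3.70 on the linear intensity scale, and no array stood apart. All 6 epithelial markers were tested, with mean log2 levels from 4.58 to 10.8, while only COL1A1 of 5 fibroblast genes, CD68 of 5 leukocyte genes and 0 of 3 endothelial genes passed the filter on dim probe sets. Levels below are log2 intensities and changes are differences of log2 intensities. They are compared across samples for the same probe set and not between probe sets, whose probes differ.

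Of the 70 members 57 were bright enough to be tested, among 17999 tested probe sets whose mean log2 level over the 16 arrays was at least 1.67. The other 13 had mean levels of 0.74 to 1.63, below the array medians of 1.83 to 1.89. These were H1-1, the single-gene probe sets of H2BC1, H2BC3 and H4C7, 2 of the 3 H2BC18 probe sets, and 1 H2A, 2 H2B, 2 H3 and 2 H4 probe sets with several symbols. H1-1, H2BC1 and H4C7 were the dimmest single-gene members of the H1, H2B and H4 families, and H4C7, at 0.58 to 1.11 over the 16 arrays, was the dimmest of all. Only 1 of the 13, H4 probe set 17005790, had a group mean of at least 2.5, in DLD1 Mut with glutamine, where its arrays read 3.32 and 2.56. The brightest probe sets were H2AC20 at a mean of 11.9, H4 probe set 17016494 at 11.6, H1-4 at 11.4, H2BC14 at 9.89 and H3 probe set 16670387 at 9.08. Over the 8 groups the means of a member spanned 0.24 to 10.8 log2 units, with a median span of 1.84, against a median difference between replicates of 0.16 to 0.27.

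**Figure D1:**
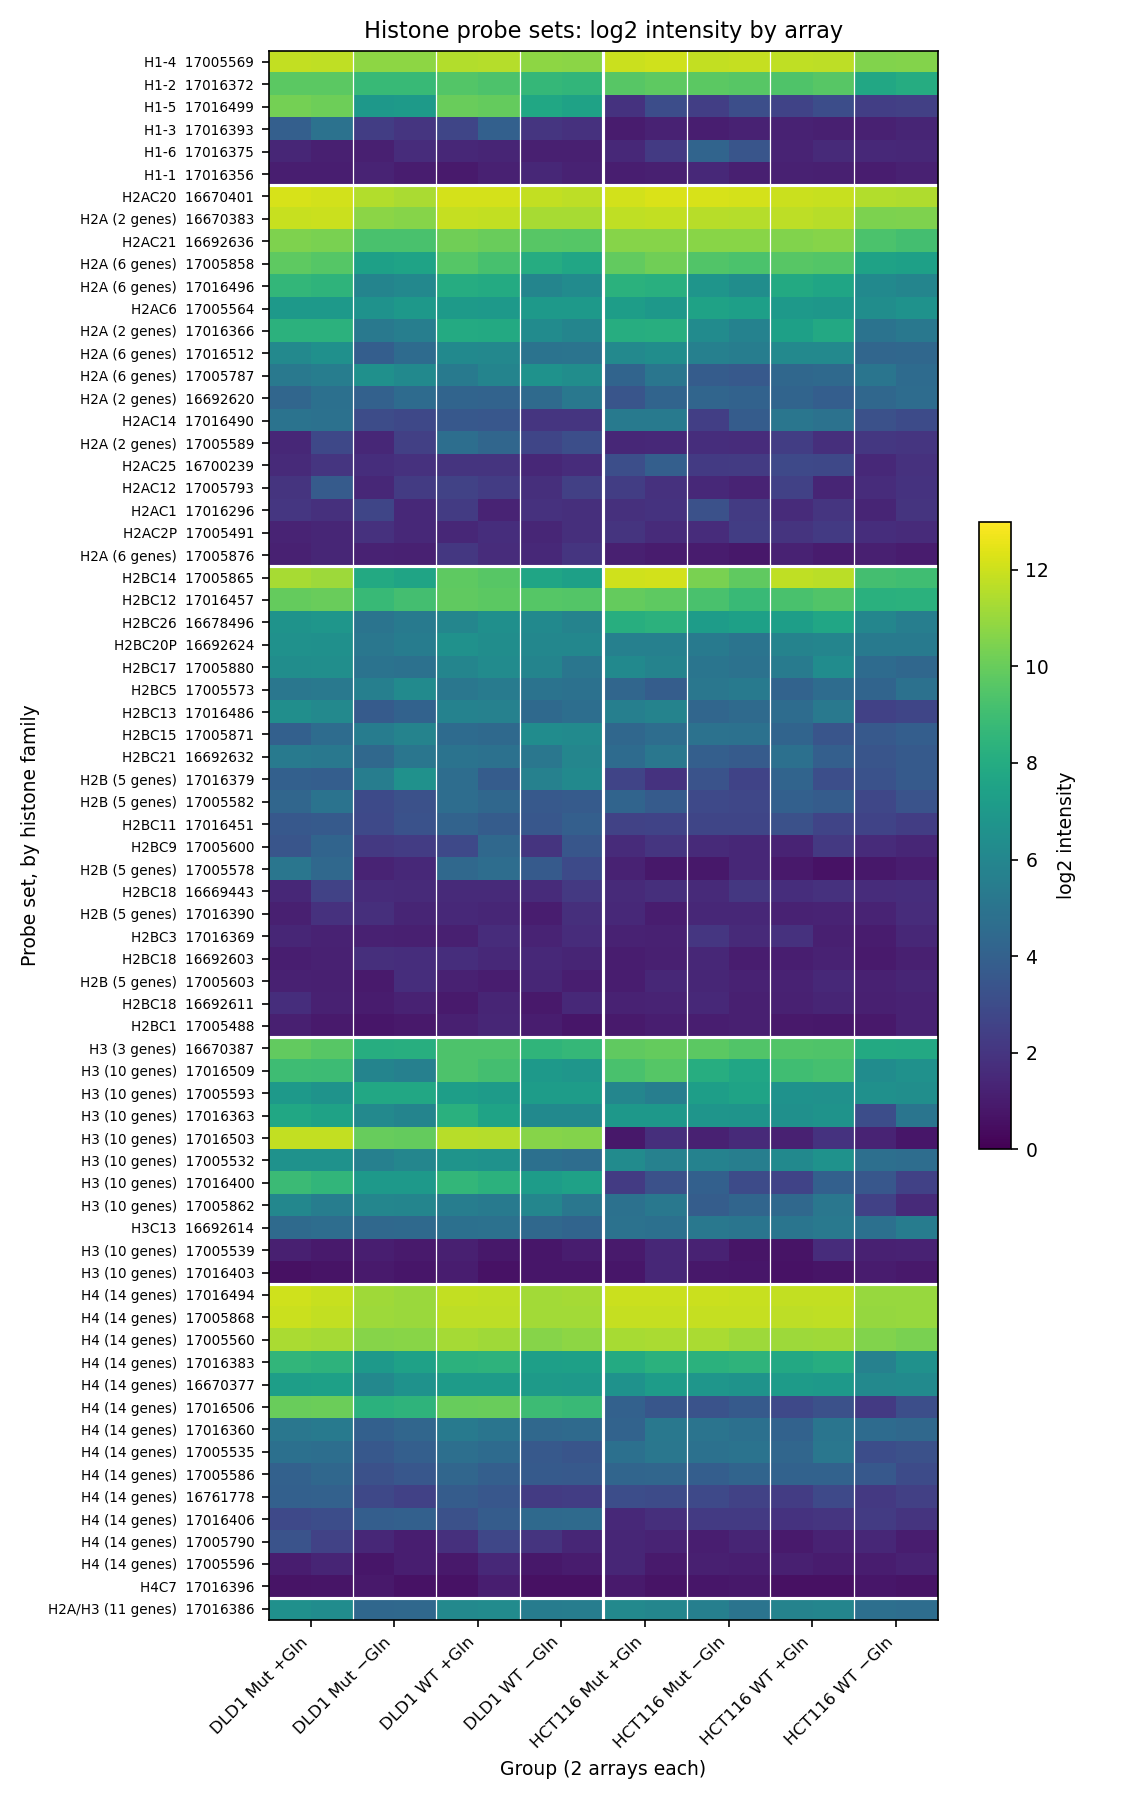
Log2 intensity of the 70 distinct histone probe sets (rows, by family and then by mean level, with gene symbol or the number of genes annotated, and identifier) on the 16 arrays (columns, 2 per group); colour runs from 0 to 13. The brightest rows of H2A, H4 and H1 have means of 11.9, 11.6 and 11.4 over the 16 arrays and are not level over the groups. A few H1, H3 and H4 rows are bright in the 8 DLD1 arrays and dark in the 8 HCT116 arrays.

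Glutamine withdrawal lowered most measurable histone probe sets in 3 of the 4 derivatives and fewer in HCT116 Mut. Many of these probe sets list the same gene copies, so the counts are not of independent genes. Among the 26 tested members with 1 symbol, 14 fell in DLD1 Mut, 10 in DLD1 WT, 9 in HCT116 Mut and 12 in HCT116 WT. In this subset HCT116 Mut was close to DLD1 WT. Averaged over the derivatives, 38 of 57 tested members fell and 6 rose (limma, adjusted p under 0.05 over all tested probe sets), where 22.9% of all tested probe sets were called lower and 23.6% higher. The median change of the 70 members, which include 13 too dim to test, was -0.56, against a median of 0.00 over all tested probe sets. Falls were found for 38 members in DLD1 Mut (16.5% of all tested probe sets were lower there), 31 in DLD1 WT (12.7%), 17 in HCT116 Mut (16%) and 31 in HCT116 WT (9.76%). Rises were found for 5 members in DLD1 Mut (15.9% of all tested were higher), 4 in DLD1 WT (13.4%), 4 in HCT116 Mut (15.9%) and 0 in HCT116 WT (9.90%), where limma gave 0 rises at an unadjusted p under 0.05 too. The median change of the same 70 members was -0.86 in DLD1 Mut, -0.47 in DLD1 WT, -0.07 in HCT116 Mut and -0.43 in HCT116 WT. The count of falls in HCT116 Mut was 11 without its second array without glutamine, and the count of rises in DLD1 WT was 2 without its second array without glutamine.

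The derivatives share no arrays, but they share 1 estimate of spread per probe set. Called lower in all 4 derivatives were 11 members, 16 were lower in 3, 9 in 2, 7 in 1, and 14 in none. The same tally was not made over all tested probe sets, so these counts are a description. Genes of DNA replication and S phase entry fell as well, though not in the same order over the derivatives: 34 of 35 fell on average, 32 in DLD1 Mut, 25 in DLD1 WT, 32 in HCT116 Mut and 35 in HCT116 WT, with medians of -0.89, -0.38, -0.90 and -1.25. In bulk RNA, fewer cells in S phase and less histone mRNA per cell cannot be told apart, and the part of S phase in the result was not tested.

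**Figure D2:**
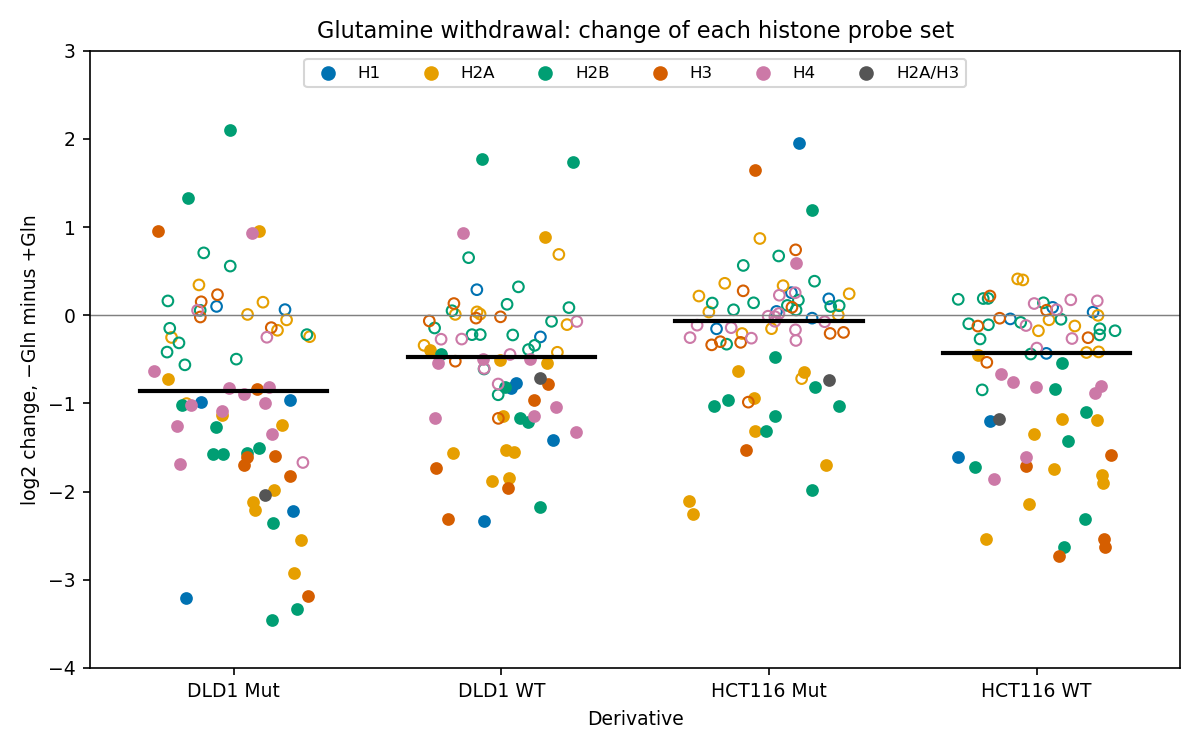
Log2 change after glutamine withdrawal (vertical axis, without minus with glutamine) of each of 70 histone probe sets in the 4 derivatives (horizontal axis, points spread sideways for legibility), coloured by family; filled points passed limma's adjusted p of 0.05, open points did not or were not tested, and black lines are medians. The medians lie at -0.86, -0.47, -0.07 and -0.43, and HCT116 WT has no filled point above 0.

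Among the linker histones, which bind DNA where it enters and leaves the nucleosome, 4 of 5 tested members fell in DLD1 Mut and in DLD1 WT, 0 fell in HCT116 Mut (0 also at an unadjusted p under 0.05) and 2 fell in HCT116 WT. H1-4, a main somatic H1, read 11.80 and 11.78 with glutamine and 10.81 and 10.80 without it in DLD1 Mut, and 11.50 and 11.54 against 10.77 and 10.74 in DLD1 WT. In HCT116 WT it read 11.76 and 11.73 with glutamine and 10.52 and 10.57 without, and in HCT116 Mut 11.96 and 12.04 against 11.82 and 11.87. The arrays did not overlap in any derivative, yet the step in HCT116 Mut was small beside the others. The changes of H1-4 were -0.99, -0.76, -0.15 and -1.20 (SE 0.08 each) in DLD1 Mut, DLD1 WT, HCT116 Mut and HCT116 WT, with adjusted p of 6.56e-06, 5.42e-05, 0.155 and 7.25e-06 (limma).

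H1-2, another somatic H1 and one of those with polyadenylated transcripts, had the same order. Its arrays read 9.75 and 9.70 with and 8.77 and 8.77 without glutamine in DLD1 Mut, and 9.51 and 9.36 against 8.67 and 8.55 in DLD1 WT. In HCT116 Mut they read 9.61 and 9.79 with and 9.74 and 9.60 without, which overlapped, and in HCT116 WT 9.42 and 9.60 against 7.77 and 8.03. H1-2 fell by 0.96, 0.83 and 1.61 (SE 0.12) in DLD1 Mut, DLD1 WT and HCT116 WT, with limma's adjusted p of 0.000148, 0.00057 and 1.52e-05, and its change in HCT116 Mut was -0.03 (adjusted p 0.871). H1-3 fell in the DLD1 derivatives, by 2.22 ± 0.39 (SE) in Mut and 1.42 ± 0.39 in WT, from with-glutamine levels of 2.70 to 4.91. In HCT116 it stayed between 0.98 and 1.37 on all 8 arrays. It passed the filter on dim probe sets only through its DLD1 arrays, so its falls are descriptions, though they are among the falls counted in DLD1.

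H1-6, the testis linker histone, behaved otherwise. It lay between 1.13 and 2.19 on 14 arrays and at 4.18 and 3.44 on those of HCT116 Mut without glutamine. It passed the filter on dim probe sets only through these 2 arrays, so its change of 1.96 there is a description, though it is 1 of the 4 rises counted in HCT116 Mut.

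Of the H2A members, which pair with H2B at the sides of the nucleosome core, 16 were tested: 8 fell in DLD1 Mut, 9 in DLD1 WT, 7 in HCT116 Mut and 9 in HCT116 WT. The widest average falls were those of H2A probe set 17016366, annotated to H2AC4 and H2AC8 (-2.35 ± 0.10), H2A probe set 17016496, annotated to 6 H2A genes (-1.97 ± 0.09), and H2AC14 (-1.92 ± 0.16). Probe set 17016366 read 8.34 and 8.35 with and 5.28 and 5.57 without glutamine in DLD1 Mut, and 7.97 and 7.90 against 6.25 and 5.93 in DLD1 WT. In HCT116 it read 8.11 and 8.16 against 6.26 and 5.79 in Mut and 7.37 and 7.85 against 4.94 and 5.20 in WT. All 8 arrays without glutamine lay below all 8 with it, and the falls of 2.92, 1.84, 2.11 and 2.54 (SE 0.20) passed in the 4 derivatives (adjusted p 8.79e-05 or less, limma).

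H2AC14 fell in each derivative as well, at lower intensities. Its arrays read 4.93 and 4.86 with and 3.01 and 2.80 without glutamine in DLD1 Mut, 3.6 and 3.52 against 2.01 and 2.01 in DLD1 WT, 5.29 and 5.38 against 2.39 and 3.77 in HCT116 Mut, and 5.13 and 4.88 against 3.24 and 2.96 in HCT116 WT. Within each derivative the arrays with and without glutamine did not overlap, though the 2 HCT116 Mut arrays without glutamine lay farther apart than other replicates. The changes were -1.99, -1.55, -2.25 and -1.90 (SE 0.32), with limma's adjusted p of 0.000832, 0.00511, 0.000399 and 0.00218.

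The brightest H2A probe set, H2AC20, moved less. It fell by 0.72 in DLD1 Mut, 0.40 in DLD1 WT and 0.45 in HCT116 WT (SE 0.09; adjusted p 0.00019, 0.00957 and 0.00647), and its HCT116 Mut arrays read 12.10 and 12.27 with and 12.23 and 12.15 without glutamine, a change of 0.00. H2AC21 fell by 1.14, 0.51 and 1.35 (SE 0.10) in the same 3 derivatives and changed by 0.04 in HCT116 Mut (adjusted p 0.832). H2AC6, also reported to give polyadenylated transcripts, passed in none of the 4: its changes were -0.24, 0.01, 0.34 and -0.42 (SE 0.14) in DLD1 Mut, DLD1 WT, HCT116 Mut and HCT116 WT. H2A probe set 17005787, annotated to 6 genes, was the single member called in opposite directions, higher by 0.96 ± 0.28 in DLD1 Mut and 0.88 ± 0.28 in DLD1 WT, and lower by 0.94 ± 0.28 in HCT116 Mut. The rise in DLD1 Mut had an adjusted p of 0.0217, and of 0.0504 to 0.136 when any of 3 of its 4 arrays was left out.

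H2B members that were called mostly fell. Of 15 tested, 9 fell in DLD1 Mut, 5 in DLD1 WT, 8 in HCT116 Mut and 7 in HCT116 WT, and 2, 2, 1 and 0 rose. Over all tested probe sets 15.9%, 13.4%, 15.9% and 9.90% were called higher there, so H2B rises were no more frequent than in general. H2BC14 had the largest average fall of all members, -2.56 ± 0.09 (adjusted p 1.1e-08). In DLD1 its arrays read 11.29 and 11.10 with and 7.92 and 7.57 without glutamine in Mut, and 9.77 and 9.60 against 7.62 and 7.41 in WT. In HCT116 they read 12.07 and 12.12 against 10.40 and 9.82 in Mut, and 11.76 and 11.66 against 9.13 and 9.04 in WT. No array without glutamine reached any with glutamine from the same line, and the falls of 3.45, 2.17, 1.98 and 2.63 (SE 0.18) had adjusted p of 9.41e-07, 2.2e-05, 2.44e-05 and 1.12e-05 (limma).

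H2BC13 also fell in all 4 derivatives, by 2.36, 1.17, 1.31 and 2.32 (SE 0.21), from 4.61 to 6.44 with glutamine to 2.52 to 4.69 without. The pseudogene H2BC20P and H2B probe set 17005582 were the other H2B members lower in each derivative, with average falls of 0.68 ± 0.07 and 1.09 ± 0.12. H2B probe set 17005578, annotated to 5 genes, fell by 3.33 ± 0.30 in DLD1 Mut, from 5.08 and 4.39 to 1.32 and 1.49, and by 1.21 ± 0.30 in DLD1 WT. In HCT116 it read 0.62 to 1.42 on all arrays, so a fall there could not be measured. It passed the filter on dim probe sets only through its DLD1 arrays, so its falls are descriptions, though they are among the falls counted in DLD1.

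H2BC15 rose in the DLD1 derivatives. Its arrays read 4.0 and 4.59 with and 5.44 and 5.79 without glutamine in DLD1 Mut and 4.54 and 4.46 against 6.35 and 6.20 in DLD1 WT, with no overlap. In HCT116 they read 4.34 and 4.63 against 4.91 and 4.83 in Mut and 4.19 and 3.42 against 3.61 and 3.91 in WT. The rises were 1.33 and 1.77 (SE 0.26; adjusted p 0.00244 and 0.000603, limma), and the HCT116 changes of 0.39 and -0.05 did not pass (adjusted p 0.3 and 0.933).

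H2B probe set 17016379, annotated to the same 5 genes as 17005578, rose by 2.10 ± 0.47 in DLD1 Mut and 1.73 ± 0.47 in DLD1 WT (adjusted p 0.00564 and 0.0196). Its DLD1 arrays read 3.78 to 4.64 with and 5.50 to 6.56 without glutamine. These calls rest on few arrays: the adjusted p was 0.0555 in Mut without its second array without glutamine, and in WT 0.14 or 0.114 without the second array with or without glutamine. Probe sets of 1 annotation thus moved in opposite directions in DLD1, and which of the 5 copies each one read was not tested.

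Polyadenylated transcripts are reported for H1-2 and H2AC6, described above, and for H2BC4, H2BC5, H2BC12 and H2BC21. H2BC4 appeared only in probe sets with several symbols. H2BC12 fell by 1.02, 0.81 and 1.10 (SE 0.16) in DLD1 Mut, HCT116 Mut and HCT116 WT, and changed by -0.22 in DLD1 WT (adjusted p 0.368). H2BC5 rose in HCT116 Mut by 1.20 ± 0.26 (adjusted p 0.00514), from 4.29 and 3.82 to 5.17 and 5.33, and its changes of 0.71, -0.39 and 0.14 in DLD1 Mut, DLD1 WT and HCT116 WT did not pass. H2BC21 passed in HCT116 Mut alone, at -1.03 ± 0.34 (adjusted p 0.0402, and 0.232 without that derivative's second array with glutamine). This call was lost in other settings too. Limma's adjusted p was 0.0516 with no filter, 0.0755 over all probe sets, 0.0524 after quantile normalization and 0.0589 with the lines fitted separately. The listed genes therefore held falls, a rise and values that did not pass.

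Of 9 tested H3 members 6 fell in DLD1 Mut, 5 in DLD1 WT, 1 in HCT116 Mut and 5 in HCT116 WT. H3 probe set 17016509, annotated to 10 H3 genes, fell in each. It read 8.95 and 8.93 with and 5.84 and 5.67 without glutamine in DLD1 Mut, 9.36 and 9.11 against 7.03 and 6.81 in DLD1 WT, 9.25 and 9.57 against 8.08 and 7.70 in HCT116 Mut, and 9.01 and 9.15 against 6.31 and 6.60 in HCT116 WT. The arrays did not overlap, and the falls were 3.19, 2.32, 1.53 and 2.63 (SE 0.17; adjusted p 7.63e-05 or less, limma). H3 probe set 17005593, with the same 10 genes in its annotation, rose by 0.96 ± 0.15 in DLD1 Mut and by 1.65 ± 0.15 in HCT116 Mut (adjusted p 0.000581 and 2.03e-05). Its changes in DLD1 WT and HCT116 WT were -0.02 and -0.12 (adjusted p 0.949 and 0.639). H3C13 on its own probe set, 16692614, passed in no derivative, while probe set 16670387, shared by H3C13, H3C14 and H3C15, fell in the other 3 and not in HCT116 Mut (-0.30 ± 0.12, adjusted p 0.0819).

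The H4 members, which pair with H3 in the nucleosome core, fell in 3 of the 4 derivatives. Of 11 tested, 10 fell in DLD1 Mut, 7 in DLD1 WT, 0 in HCT116 Mut (0 also at an unadjusted p under 0.05, limma) and 7 in HCT116 WT. Probe set 17016494, annotated to 14 H4 genes, read 12.08 and 11.91 with and 11.17 and 11.04 without glutamine in DLD1 Mut, and 11.79 and 11.76 against 11.21 and 11.26 in DLD1 WT. It read 11.95 and 11.94 with and 11.94 and 11.93 without in HCT116 Mut, and 11.82 and 11.81 against 10.98 and 11.02 in HCT116 WT. The HCT116 Mut arrays were level, and the arrays of the other derivatives did not overlap. The changes were -0.89, -0.54, -0.02 and -0.82 (SE 0.09), with adjusted p of 2.76e-05, 0.00104, 0.914 and 0.000102.

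H4 probe set 17016406, from the same family of 14 genes, rose in 3 derivatives: by 0.93 in DLD1 Mut, 0.94 in DLD1 WT and 0.60 in HCT116 Mut (SE 0.17; adjusted p 0.00201, 0.0027 and 0.0232), with 0.16 in HCT116 WT (adjusted p 0.594). No other member was called higher in more than 2 derivatives. It was a dim probe set, at 1.48 to 4.48 over the arrays.

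**Figure D3:**
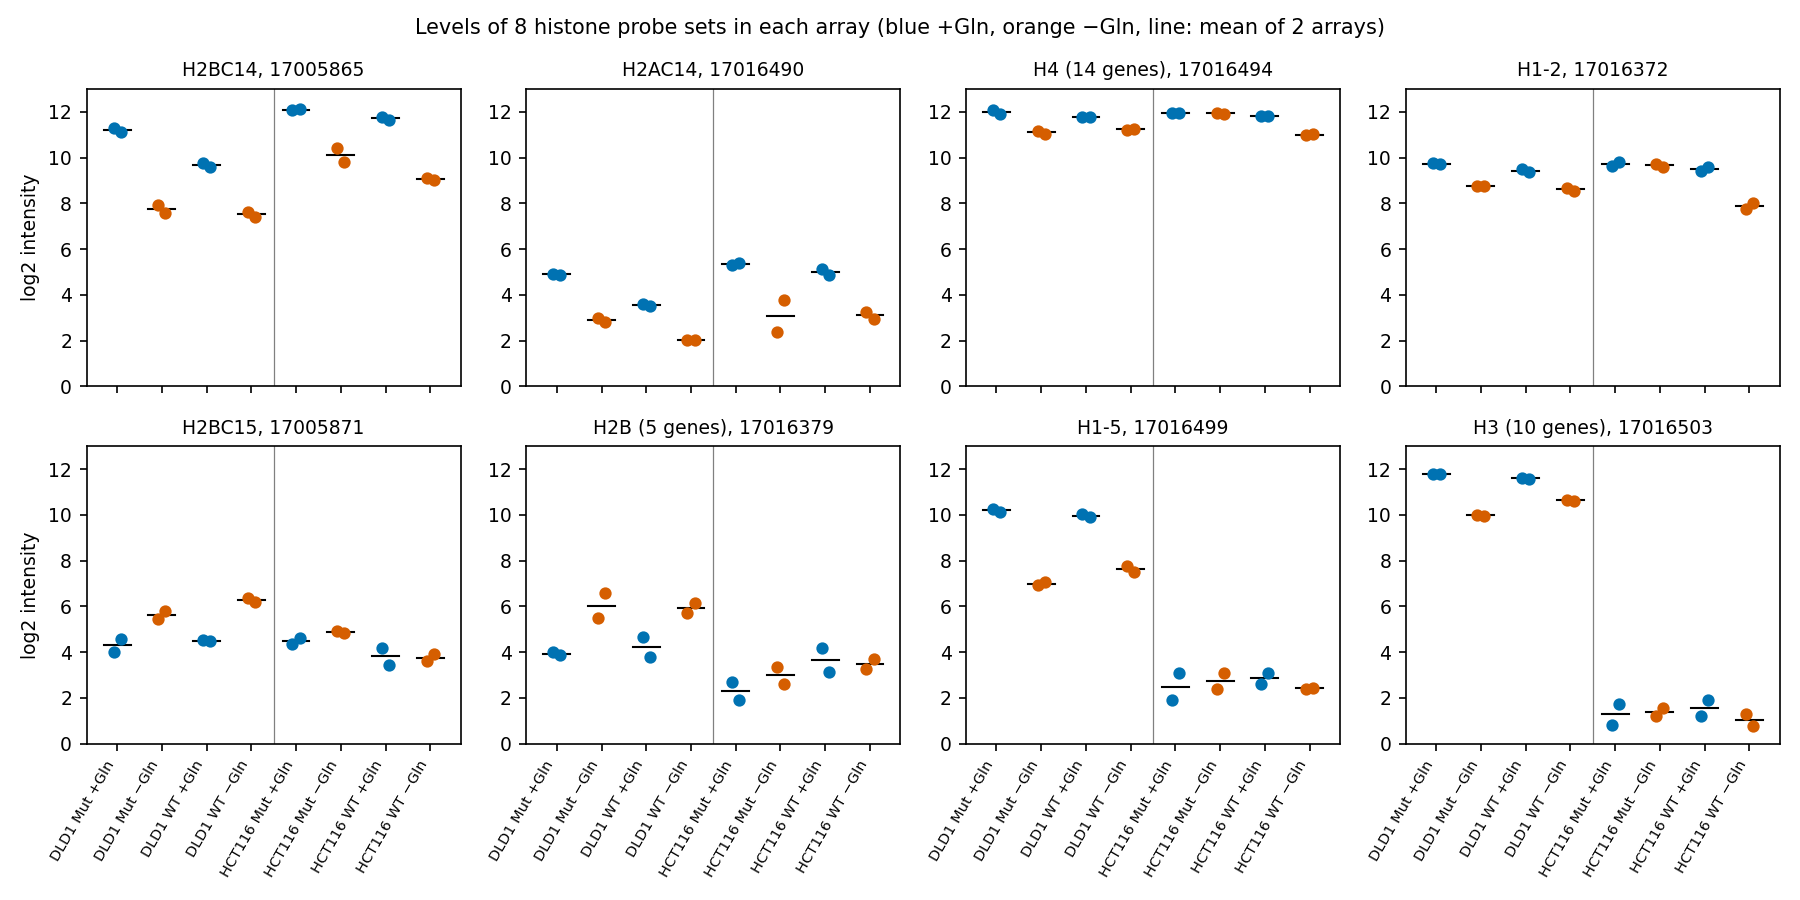
Log2 intensity (vertical axis) of 8 histone probe sets on each of the 16 arrays, by group (horizontal axis); blue points are arrays with glutamine, orange points arrays without, and lines are means of 2 arrays. H2BC14 and H2AC14 drop in all 4 derivatives, H4 probe set 17016494 and H1-2 stay level in HCT116 Mut, H2BC15 and H2B probe set 17016379 climb in DLD1, and H1-5 and H3 probe set 17016503 are near the floor in HCT116.

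Promoter sequences are shown for members on which these results turn, to set a gene that fell in every derivative (H2BC14) beside one of the same family that rose in DLD1 (H2BC15), together with H1-2, H2AC21 and the line-restricted H1-5. RefSeq (GRCh38.p14) gave a promoter for 64 of the 71 member genes. The 180 bases before each start are given on the strand of the gene. Capitals mark exact matches to TATAAA (a form of the TATA box), CCAAT and the octamer ATTTGCAT, on either strand. TATA-like stretches with other letters, as in H1-5 (tatataa) and H1-2 (tatatata), are left in lower case. H2BC14 lies at chr6:27814842-27815021 (+), H2BC15 at chr6:27838389-27838568 (+), H1-5 at chr6:27867589-27867768 (-), H1-2 at chr6:26056471-26056650 (-) and H2AC21 at chr1:149887966-149888145 (-).
H2BC14: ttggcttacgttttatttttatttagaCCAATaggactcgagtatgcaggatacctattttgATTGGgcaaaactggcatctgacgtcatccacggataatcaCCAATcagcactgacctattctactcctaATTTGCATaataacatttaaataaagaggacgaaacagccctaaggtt
H2BC15: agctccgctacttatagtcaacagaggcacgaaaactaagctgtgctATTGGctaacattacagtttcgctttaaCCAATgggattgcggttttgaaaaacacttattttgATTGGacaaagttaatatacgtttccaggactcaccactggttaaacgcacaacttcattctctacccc
H1-5: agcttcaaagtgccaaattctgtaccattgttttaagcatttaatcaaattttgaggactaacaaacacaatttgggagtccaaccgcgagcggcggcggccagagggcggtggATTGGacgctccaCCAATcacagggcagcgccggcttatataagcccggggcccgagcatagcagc
H1-2: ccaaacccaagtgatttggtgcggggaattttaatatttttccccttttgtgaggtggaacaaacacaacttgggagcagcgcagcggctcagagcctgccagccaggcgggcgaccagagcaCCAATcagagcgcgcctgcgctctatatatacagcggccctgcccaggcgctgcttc
H2AC21: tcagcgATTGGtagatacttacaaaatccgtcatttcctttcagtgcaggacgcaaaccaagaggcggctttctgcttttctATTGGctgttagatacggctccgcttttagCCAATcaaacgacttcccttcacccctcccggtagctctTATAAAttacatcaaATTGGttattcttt
The stretch of H2BC14 holds 3 CCAAT matches and the octamer, 41 bases before the start, and that of H2BC15 holds 3 CCAAT matches. H1-5 has 2 and H1-2 has 1, both with no octamer, and H2AC21 has TATAAA 24 bases before the start and 4 CCAAT matches.

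Over the 250 bases before the start, searched on both strands, TATAAA was in 42 of 64 member promoters (65.6%) and in 10.7% of 35114 promoters of all genes. CCAAT was in 54 (84.4%, against 32.0%), among them every H1, H2A, H2B and H3 promoter searched and 3 of 13 H4 promoters. ATTTGCAT was in 26 (40.6%, against 1.63%): 14 of 18 H2B, 11 of 16 H2A, 1 of 11 H3 and no H1 or H4 promoter. Among tested single-gene members with a promoter, 6 of 12 with the octamer and 4 of 11 without it were lower in 3 or 4 derivatives, and 0 of 12 and 3 of 11 were higher in any. For TATAAA, 8 of 15 with it and 2 of 8 without it were lower in 3 or 4, and 1 of 15 and 2 of 8 were higher in any. Only exact letters were searched, so a promoter without TATAAA may hold another form of the TATA box. All 23 had CCAAT. Motif and family go together here, and neither split was tested. A match is a description of the letters, and binding was not measured.

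The cell lines differed at baseline in both directions. With glutamine, 22 of 57 tested members were higher in DLD1 and 7 were lower, while 23.6% of all tested probe sets were higher and 22.2% lower. The largest differences were those of H3 probe set 17016503 (10.27), H1-5 (7.41 ± 0.23), H4 probe set 17016506 (6.63 ± 0.20) and H3 probe set 17016400 (5.57 ± 0.35), of which the last 3 had adjusted p of 2.96e-07 or less (limma). H2B probe set 17005578 and H1-3 followed, at 4.39 to 5.08 and 2.70 to 4.91 in DLD1 with glutamine, and in HCT116 they were below the array median on all arrays. Probe sets 17016503 and 17005578 and H1-3 passed the filter only through DLD1, so their differences are descriptions.

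H1-5, another somatic linker histone, read 10.27 and 10.13 in DLD1 Mut and 10.03 and 9.90 in DLD1 WT with glutamine. In HCT116 it read 1.92 and 3.07 in Mut and 2.62 and 3.08 in WT. The lines were far apart, and the lowest HCT116 value was close to the median of all probe sets on an array.

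H3 probe set 17016503 read 11.80, 11.78, 11.62 and 11.57 in DLD1 with glutamine and 0.82, 1.74, 1.21 and 1.92 in HCT116. H4 probe set 17016506 read 10.04, 10.07, 9.99 and 10.03 against 4.06, 3.46, 2.86 and 3.23. H3 probe set 17016400 read 8.33 to 8.85 against 2.27 to 3.99. For all of them the 4 DLD1 arrays lay above the 4 HCT116 arrays, and where HCT116 values are near the array median the intensities give no exact fold.

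Among the members lower in DLD1 were H2BC14 (-1.46 ± 0.13), H2BC26 (-1.40 ± 0.16), which lies on chromosome 1 away from the large clusters, and H2AC25 (-1.32 ± 0.17). H2BC26 read 5.96 to 6.81 on the DLD1 arrays with glutamine and 7.29 to 8.36 on those of HCT116.

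**Figure D4:**
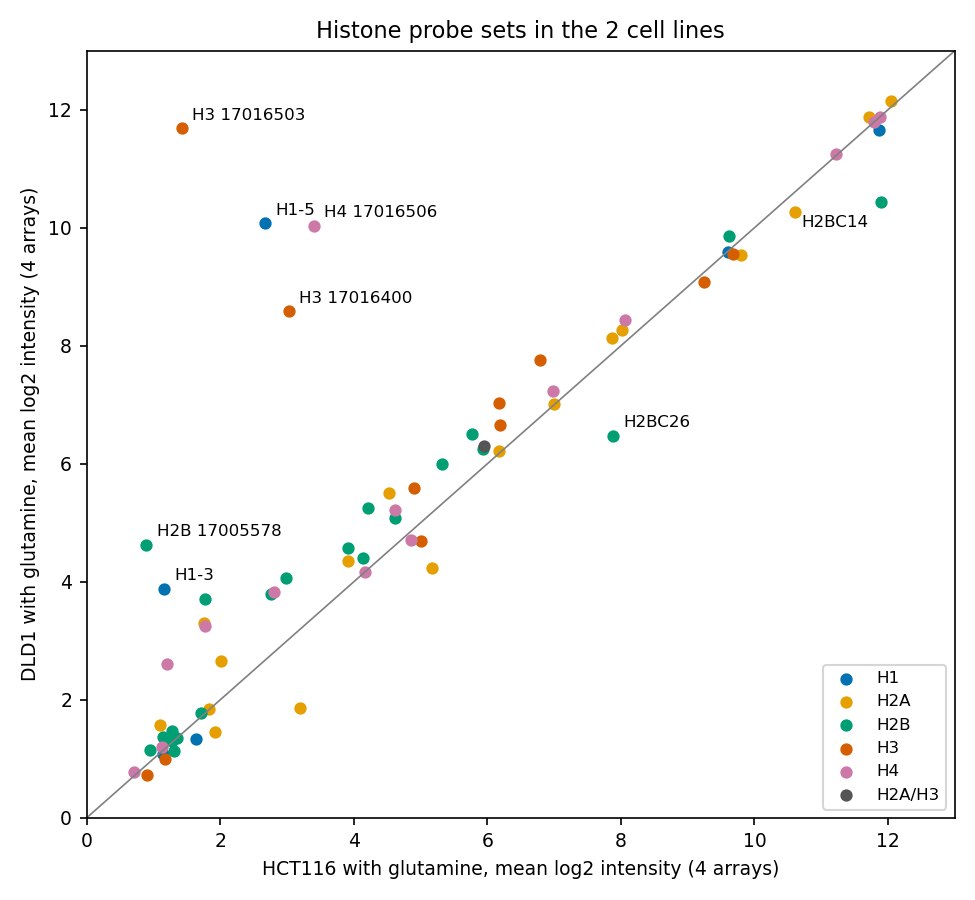
Mean log2 intensity with glutamine of 70 histone probe sets in HCT116 (horizontal axis) and DLD1 (vertical axis), 4 arrays each, coloured by family; the diagonal marks equal levels. H3 probe set 17016503, H1-5, H4 probe set 17016506 and H3 probe set 17016400 stand far above the diagonal, and H2BC14 and H2BC26 lie below it.

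The response to withdrawal also differed between the lines for 17 members, with 12 differences (DLD1 minus HCT116) below 0 and 5 above, where 8.82% of all tested probe sets were called below and 9.24% above. H1-5 fell by 3.21 ± 0.33 in DLD1 Mut, to 6.92 and 7.06, and by 2.34 ± 0.33 in DLD1 WT, to 7.75 and 7.51 (adjusted p 4.21e-05 and 0.000483). Its changes in HCT116 Mut and WT were 0.26 and -0.43 (limma, adjusted p 0.614 and 0.422), and the difference between the lines was -2.68 ± 0.33 (adjusted p 0.000496). H1-5 was dim in HCT116, so a fall as large as in DLD1 could not be seen there. H3 probe set 17016503 fell by 1.82 and 0.97 (SE 0.30) in DLD1 Mut and WT, and H4 probe set 17016506 by 1.68 and 1.16 (SE 0.28). On the HCT116 arrays H3 probe set 17016503 was at or below the array median, apart from a single array slightly above it, so a fall could not be seen there; H4 probe set 17016506 was above it. H2BC15 (1.38 ± 0.26), H2AC25 (1.04 ± 0.24) and H3 probe set 17005862 (2.00 ± 0.37) differed the other way: H2AC25 fell in HCT116 by 1.32 and 1.18 in Mut and WT, but at 1.54 to 1.99 in DLD1 with glutamine, near the array median, a fall could not be seen in that line. H3 probe set 17005862 fell in HCT116 WT by 2.73 ± 0.37.

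PIK3CA genotype with glutamine present made few calls among the members. In DLD1 2 of 57 were higher and 1 lower in Mut than in WT, against 2.43% and 2.94% of all tested probe sets. H2BC14 was higher in DLD1 Mut by 1.51 ± 0.18 (adjusted p 0.000867, limma), H2AC14 by 1.33 ± 0.32 (adjusted p 0.0393), and H2A probe set 17005589, annotated to H2AC4 and H2AC8, was lower by 2.37 ± 0.41 (adjusted p 0.00787). The array values of the first pair stand above, and probe set 17005589 read 1.45 and 2.80 in Mut and 4.71 and 4.27 in WT. For probe set 17005589 the adjusted p was 0.0514 without the first Mut array, 0.0592 without the first WT array and 0.0637 with the lines fitted separately. The groups did not overlap for these 3 members, and the call of H2AC14 was lost when any of the 4 arrays compared was left out (adjusted p 0.13 to 0.171). H2AC14 and H2BC14 are neighbours in the RefSeq order of member genes. Without the first DLD1 Mut array with glutamine 1 of the 3 calls was left. In HCT116, H3 probe set 17005593 was the single call, lower in Mut by 0.84 ± 0.15 (adjusted p 0.0134), where 1.91% of all tested probe sets were called lower and 1.04% higher. It read 5.95 and 5.57 in Mut and 6.63 and 6.58 in WT, and the adjusted p was 0.0946, 0.0887 and 0.0695 without the second Mut array or either WT array.

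The response to withdrawal differed between the HCT116 derivatives. The change in Mut minus that in WT was above 0 for 16 of 57 tested members and below 0 for 0 (1 at an unadjusted p under 0.05, limma), while 4.51% of all tested probe sets were called above and 4.50% below. The median difference of the members was 0.44. By family, 3 of 5 tested H1 members, 5 of 16 H2A, 4 of 9 H3, 4 of 11 H4 and 0 of 15 H2B members were called (4 H2B members at an unadjusted p under 0.05).

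H4 probe set 17016383 had the largest called difference, 2.12 ± 0.35 (adjusted p 0.00521). It read 7.95 and 8.30 with and 8.28 and 8.48 without glutamine in HCT116 Mut, and 7.86 and 8.11 against 5.69 and 6.56 in HCT116 WT. It was thus level in Mut and lower without glutamine in WT, as were H1-2 (1.57 ± 0.17, adjusted p 0.000683), H2AC21 (1.39 ± 0.15, adjusted p 0.000643), H1-4 (1.04 ± 0.11, adjusted p 0.000558) and H4 probe set 17016494 (0.80 ± 0.12, adjusted p 0.00332). H3 probe set 17005593 (1.77 ± 0.21, adjusted p 0.00106) rose in Mut and did not pass in WT. H1-6, with a difference of 1.92, is also among the 16, and was bright enough for the test only through the HCT116 Mut arrays without glutamine. With the lines fitted separately 10 of 57 members were called, and limma's adjusted p was 0.0574 for probe set 17016383 and 0.0759 for H1-6. H3 probe set 17016509 (1.10 ± 0.24, adjusted p 0.0181) fell in both, by 1.53 in Mut and 2.63 in WT. H2AC6 was called too, at 0.75 ± 0.19 (adjusted p 0.0384), though neither of its changes passed alone.

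For H2BC14 (0.65 ± 0.26, adjusted p 0.156), H2A probe set 17016366 (0.43 ± 0.28, adjusted p 0.399) and H2AC14 (-0.35 ± 0.46, adjusted p 0.716), which fell in both derivatives, the difference between them did not pass. Genes of DNA replication leaned above 0 in this comparison as well, though not all of them: 27 of 35 lay above 0 and 8 below, with a median of 0.36. Called were 6 above 0 and 3 below. MCM10 (1.05), a replication initiation factor, was among the 6, and CCNE1 (-1.31), cyclin E1, among the 3.

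**Figure D5:**
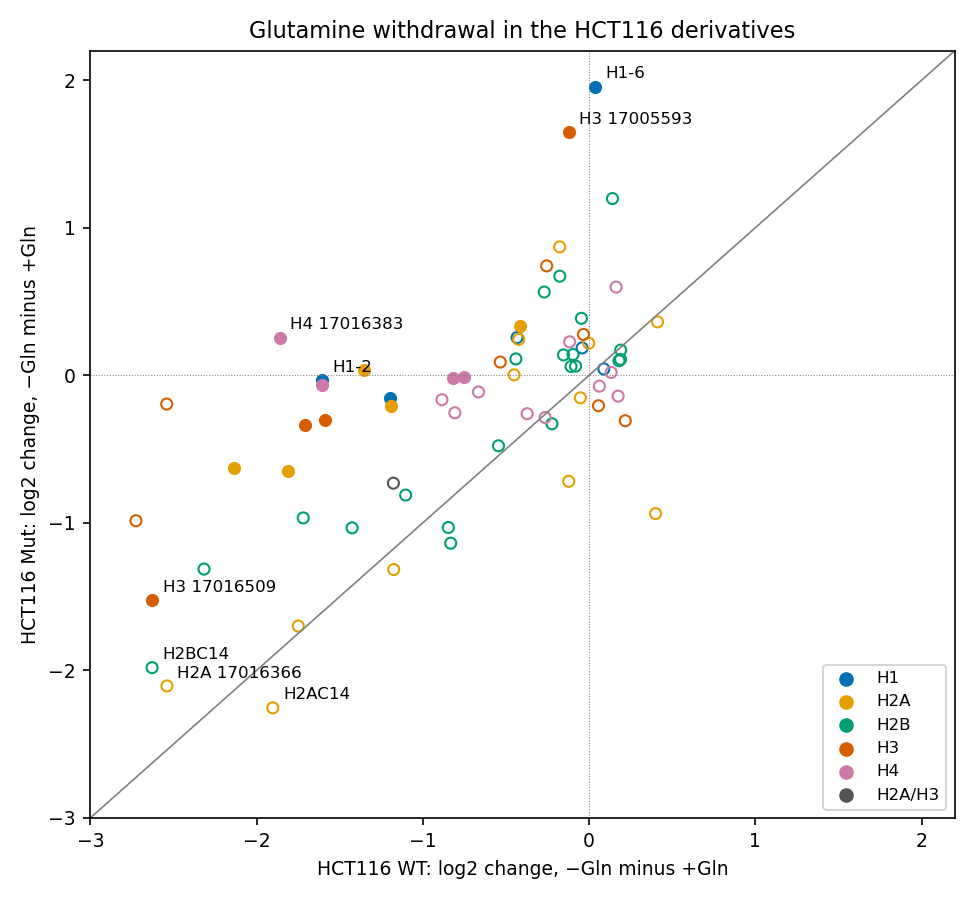
Log2 change after glutamine withdrawal in HCT116 WT (horizontal axis) and HCT116 Mut (vertical axis) of 70 histone probe sets, coloured by family; filled points passed limma's test of the difference between the derivatives, open points did not or were not tested, and the solid line marks equal changes. The 16 filled points all lie above the line, many at a change near 0 in Mut and below -0.7 in WT, and H2AC14, H2BC14 and H2A probe set 17016366 are low in both.

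In DLD1 the same difference passed for 2 members, both below 0, with 0.589% of all tested probe sets called below and 0.217% above. The probe set annotated to H2AC7 and 10 H3 genes, 17016386, fell by 2.04 in Mut and 0.71 in WT (difference -1.33 ± 0.24, adjusted p 0.0382), and H2A probe set 16670383, annotated to H2AC18 and H2AC19, by 1.25 and 0.54 (-0.71 ± 0.11, adjusted p 0.0316). No member was called when any of the 8 DLD1 arrays, or either HCT116 WT array with glutamine, was left out (0 members, limma). Of 35 genes of DNA replication 34 lay below 0 in the DLD1 comparison, with a median of -0.55. Called were 8 below 0 and 0 above.

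Genes that make, mature, degrade and deposit histone products were taken from lists of related genes. On average over the derivatives 22.9% of all tested probe sets were called lower and 23.6% higher. In each list below except that of mRNA decay, the rises made up less than that share. Of 17 tested genes of histone transcription and 3' end processing 9 fell and 3 rose on average. SLBP, which binds the stem-loop, fell by 0.49 ± 0.05 on average (adjusted p 2.63e-05, limma), with changes of -0.63 in DLD1 Mut, 0.05 in DLD1 WT, -0.82 in HCT116 Mut and -0.55 in HCT116 WT (SE 0.11), of which that in DLD1 WT did not pass. NPAT fell in HCT116 Mut and WT by 0.80 and 0.47 (SE 0.14; adjusted p 0.00115 and 0.0333), and its DLD1 changes of 0.12 and 0.13 did not pass. SRRT (-0.90 ± 0.06) and NCBP1 (-0.63 ± 0.05), parts of the cap-binding machinery, fell, and FIP1L1, a polyadenylation factor, rose (0.55 ± 0.05).

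Of 9 genes of histone mRNA decay and translation 7 rose on average and 0 fell (0 also at an unadjusted p under 0.05). DCP2, a decapping enzyme, rose by 0.69 ± 0.05, XRN1, a 5'-3' exonuclease, by 0.73 ± 0.06, and UPF1, a helicase needed for histone mRNA decay, by 0.50 ± 0.04 (adjusted p 4.73e-06 or less). DCP2 rose by 1.17 ± 0.10 in HCT116 Mut and changed by 0.10 ± 0.10 in HCT116 WT, a difference that passed (1.07 ± 0.14, adjusted p 0.00154).

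Histone chaperones mostly fell, 14 of 17 on average with 2 rises. ASF1B fell by 0.90 ± 0.05, CHAF1A, a subunit of the chromatin assembly factor CAF-1, by 0.84 ± 0.05, and MMS22L and TONSL, partners in the handling of new histones at replication forks, by 1.00 ± 0.06 and 1.03 ± 0.07 (adjusted p 8.56e-07 or less). ASF1A, the other copy of ASF1, was among the rises at 0.32 ± 0.05 (adjusted p 0.000294).

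Of 13 histone genes listed as replication-independent, most of them made throughout the cell cycle, 8 were measured by a single-gene probe set. Of these 7 were tested: 4 fell and 1 rose on average. H2AX, the DNA damage variant, fell by 0.69 ± 0.08 and H2AZ1 by 0.51 ± 0.05 (adjusted p 3.63e-05 and 1.87e-05). H1-10, a linker histone outside the clusters, rose by 1.13 ± 0.10 (adjusted p 5.44e-06), with 1.01, 0.97 and 1.93 in DLD1 Mut, DLD1 WT and HCT116 Mut (adjusted p 0.00319, 0.00532 and 5.72e-05) and 0.63 ± 0.20 in HCT116 WT (adjusted p 0.053). Its response was larger in HCT116 Mut than in WT (1.29 ± 0.29, adjusted p 0.0207).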

How the data were processed

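The authors deposited 1 linear intensity per probe set and array; the array medians were nearly equal, and what software and normalization lie behind them is not stated in any label or header read here. Labelling followed the Affymetrix whole-transcript protocol and RNA came from a Qiagen kit, per the labels' protocols. The log2 of each intensity was taken with no pseudocount or further normalization. Symbols came from the platform annotation (90 updated through Entrez identifiers to RefSeq, GRCh38.p14): 23871 probe sets had 1, 1842 several and 27904 none.

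Probe sets with a symbol in the upper 70% of mean log2 level entered a single lmFit and eBayes fit of 8 group means (limma 3.58.1, R 4.3.3), with 8 residual and 2.48 prior degrees of freedom; the script was tested on simulated data. A call means p under 0.05 after Benjamini-Hochberg adjustment across the 17999 probe sets fitted, and errors are limma's SE.

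The members and lists were chosen with earlier results of these data known. Named were the 6 largest average falls and rises, the 3 largest per derivative (arrays not overlapping) and per other contrast and direction, the brightest and dimmest member of each family, members with polyadenylated transcripts and up to 4 genes of each related list, of which the text gives a part. Other members and related genes were named after their values were seen. Alternatives were the filter on dim probe sets, all probe sets, quantile or median scaling, log2(value + 4), a replicate block, eBayes with trend and robust, lines fitted separately and each array left out. The alternative of counting all 72 probe sets was added after seeing the data.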

Additional observations from a re-analysis of the deposited data

Results flagged for a closer look

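The withdrawal response differed between DLD1 and HCT116 for 17 members in a test of the difference (limma). The named differences, DLD1 minus HCT116, were -2.68 for H1-5, -2.42 for H2B probe set 17005578, -1.89 for H1-3, 2.00 for H3 probe set 17005862, 1.67 for H2B probe set 17016379 and 1.38 for H2BC15. H1-3 and probe set 17005578 were below the array median on all HCT116 arrays and were tested only because DLD1 is higher, so a fall in HCT116 could not be seen and their values are descriptions. H1-5 was dim in HCT116 as well, so a fall as large as in DLD1 could not be seen there. The difference of probe set 17016379 had an adjusted p of 0.0326, and of 0.0577 to 0.0737 without any of 9 single arrays and 0.0666 over all probe sets (limma).

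The withdrawal response differed between the HCT116 derivatives for 16 members. The named differences, Mut minus WT, were 2.12 for H4 probe set 17016383, 1.92 for H1-6 and 1.77 for H3 probe set 17005593. With the lines fitted separately probe set 17016383 and H1-6 were no longer called (limma's adjusted p 0.0574 and 0.0759). H1-6 was tested only because it is high in HCT116 Mut without glutamine. In DLD1 the response differed between the derivatives for 2 members, at -1.33 for probe set 17016386, annotated to H2AC7 and 10 H3 genes, and at -0.71 for H2A probe set 16670383.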

How the results depend on the processing

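No named value changed sign: of 1602 alternative values for 63 called ones, 1506 stayed called and 96 did not. Counts of members stayed within 1.5 times their values except as follows; the cause was not tested. Rises in HCT116 Mut (4) were 2 among probe sets above the median level. Mut against WT with glutamine in DLD1 (3) had 9 with trend and robust eBayes; in HCT116 (1) it had 3 above the median level, 6 with trend and robust and 0 with lines fitted separately. The interaction in HCT116 (16) had 10 with lines fitted separately. That in DLD1 (2) had 0 with no filter, 0 with all probe sets, 8 above the median level, 5 after quantile normalization, 10 with log2(value + 4), 19 with trend and robust, and 0 with lines fitted separately. Leaving out 1 array gave 31 to 38, 22 to 32, 11 to 17 and 27 to 32 falls in DLD1 Mut, DLD1 WT, HCT116 Mut and HCT116 WT, 37 to 40 on average, and 4 to 6, 2 to 4, 3 to 5 and 0 to 0 rises, 5 to 7 on average. It gave 12 to 19 differences between the line responses, 25 to 32 between the lines, 1 to 3 and 0 to 2 between genotypes in DLD1 and HCT116, and 0 to 3 and 13 to 17 interactions.

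Replicate numbers share only a number: deviations of same-numbered arrays correlated at -0.04 to 0.04 over 28 pairs, 0 of them above 0.1. With a replicate block within each line the DLD1 interaction had 0 members, that in HCT116 15 and the line comparison 24. A block over all arrays left 38 falls in DLD1 Mut and 17 in HCT116 Mut. Members near the array median have no measurable fall, and 13 were too dim to test.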

Other observations

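The symbols listed first for the 3 members with the largest differences between the lines neighbour each other, a pattern noticed after the values were seen. H3 probe set 17016503 lists H3C11 first among its 10 symbols and H4 probe set 17016506 lists H4C13 first among its 14. In the RefSeq order of chromosome 6, H1-5, H3C11 and H4C13 are consecutive genes between H2AC16 and the pseudogene HCG13P, after which H3C12, H2AC17 and H2BC17 follow. The probe sets that list H3C12 (17016509) and H2AC17 (17016512) first read 8.93 to 9.57 and 6.07 to 6.54 over the 8 arrays with glutamine, in both lines. The next in size do not belong to it: H3 probe set 17016400 lists H3C7 first, and H3C7, H1-3 and the 5 genes of H2B probe set 17005578 lie elsewhere on chromosome 6. Which copy each of these probe sets measured was not tested.

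Of the 70 members 28 had their highest group mean in DLD1 Mut with glutamine and 30 had their lowest in HCT116 WT without glutamine. This tally includes the 13 members too dim to test and was not made over all probe sets, so it is a description.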
